A study of Mus musculus with 10 samples.

Results

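The muscarinic acetylcholine receptors are encoded in the mouse by 5 genes, Chrm1 to Chrm5, and these were followed by symbol as 5 of the 56691 genes in the table. All 5 were present, all 5 had at least 1 count in every library, and all 5 passed the filter on low values (a mean of at least 1 FPKM over the 10 libraries). RNA was sequenced from the medial habenula of 10 wild-type mice, with 1 library per mouse. The 6 withdrawal mice had been injected intraperitoneally with nicotine ditartrate at 4 mg/kg, 2 times a day for 14 days, and with saline in its place from day 15. The 4 control mice were given intraperitoneal saline for 17 days, and tissue from both groups was taken on day 17. The sample labels name cholinergic neurons sorted by flow cytometry from the medial habenula, while the series record speaks of tissue and names no sort.

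Muscarinic receptors are G protein-coupled receptors for acetylcholine, the transmitter that medial habenula neurons make and release together with glutamate. The receptors M1, M3 and M5 (Chrm1, Chrm3, Chrm5) couple mainly to Gq and phospholipase C, which raises calcium. M2 and M4 (Chrm2, Chrm4) couple mainly to Gi and Go, which lower cyclic AMP, open inwardly rectifying potassium channels and restrain transmitter release. M1 is known as the main muscarinic receptor of hippocampal and cortical pyramidal neurons, M2 as the autoreceptor of many cholinergic neurons, and M4 as a receptor of the striatum.

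The libraries held between 15023448 and 22026333 counts. The habenula markers set control 2 and withdrawal 2 apart from the other 8 libraries. Chat, which makes acetylcholine, had 26.6 to 40.7 CPM (a library's counts scaled to a common total) in 8 libraries, 0.2004 CPM in withdrawal 2 and 0.165 CPM in control 2. The summed level of 12 medial habenula markers was 253.9 CPM in withdrawal 2 and 42.9 CPM in control 2, against 1794 to 2517 CPM in the other 8. Most of that sum in withdrawal 2 was Calb2, at 221.3 CPM there and 7.25 CPM in control 2. The sum therefore does not rank these 2 libraries by habenula RNA. Markers that cholinergic neurons should lack were abundant everywhere, with 6 oligodendrocyte markers summing to between 5863 and 14570 CPM. Each receptor is therefore given with all 10 libraries and again in the 8 without this pair, a choice made with these values known.

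Per length and in the 8 libraries, Chrm2 was the most abundant muscarinic transcript in withdrawal and shared the top place with Chrm1 in controls. In the 5 withdrawal libraries other than withdrawal 2, Chrm2 had 8.89 ± 1.45 FPKM, Chrm3 3.70 ± 0.62, Chrm1 1.96 ± 0.71, Chrm5 1.33 ± 0.43 and Chrm4 1.08 ± 0.13 (FPKM, SD, n = 5). The ranges of Chrm2 (7.53 to 10.8 FPKM) and Chrm3 (2.84 to 4.36 FPKM) did not overlap each other or those of the rest, while Chrm1 (0.87 to 2.61 FPKM), Chrm5 (0.82 to 1.92 FPKM) and Chrm4 (0.93 to 1.29 FPKM) did. In the 3 controls other than control 2, Chrm1 had 10.8 ± 6.17 FPKM, Chrm2 7.89 ± 1.84, Chrm3 4.04 ± 0.82, Chrm4 1.18 ± 0.33 and Chrm5 0.85 ± 0.24 (FPKM, SD, n = 3). There the ranges of Chrm1 (6.61 to 17.9 FPKM) and Chrm2 (6.52 to 9.98 FPKM) overlapped, and so did those of Chrm4 (0.96 to 1.56 FPKM) and Chrm5 (0.64 to 1.12 FPKM). Chrm3 (3.42 to 4.97 FPKM) lay between the pairs without overlap. Withdrawal 2 and control 2 had another order, with Chrm1 highest in both and Chrm2 lowest of the 5 in control 2. With them the means were 8.53 FPKM for Chrm2, 4.14 for Chrm3 and 3.43 for Chrm1 in withdrawal, and 19.9 FPKM for Chrm1, 8.09 for Chrm3 and 6.18 for Chrm2 in controls.

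In the make-up of the receptor transcripts, Chrm1 held a smaller share in 5 of the 6 withdrawal libraries than in any control. Of the summed FPKM of the 5 receptors, Chrm1 held 5.02%, 13.4%, 15.7%, 10.4% and 13.5% in withdrawal 1, 3, 4, 5 and 6, against 33.1%, 55.5% and 36.1% in controls 1, 3 and 4. It held 40.8% in withdrawal 2 and 62.4% in control 2. The Gq-coupled receptors (Chrm1, Chrm3, Chrm5) together held 41.3 ± 7.0% in the 5 withdrawal libraries and 61.9 ± 9.95% in the 3 controls (SD), with ranges of 30.4% to 47.9% and 53.5% to 72.9% that did not overlap. With withdrawal 2 at 66.5% and control 2 at 93.01% the ranges of the whole groups did overlap. In the 8 libraries the lower Gq-coupled share came from Chrm1 alone. Chrm3 held 18.1% to 26.4% in the 5 withdrawal libraries and 15.4% to 18.7% in the 3 controls. Chrm5 held 5.22% to 11.7% and 1.99% to 4.73%. Shares of one whole are tied, so a smaller Chrm1 share raises the rest. The summed level of the 5 receptors was 17.0 ± 1.53 FPKM in the 5 withdrawal libraries and 24.7 ± 7.0 FPKM in the 3 controls (SD).

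**Figure D1:**
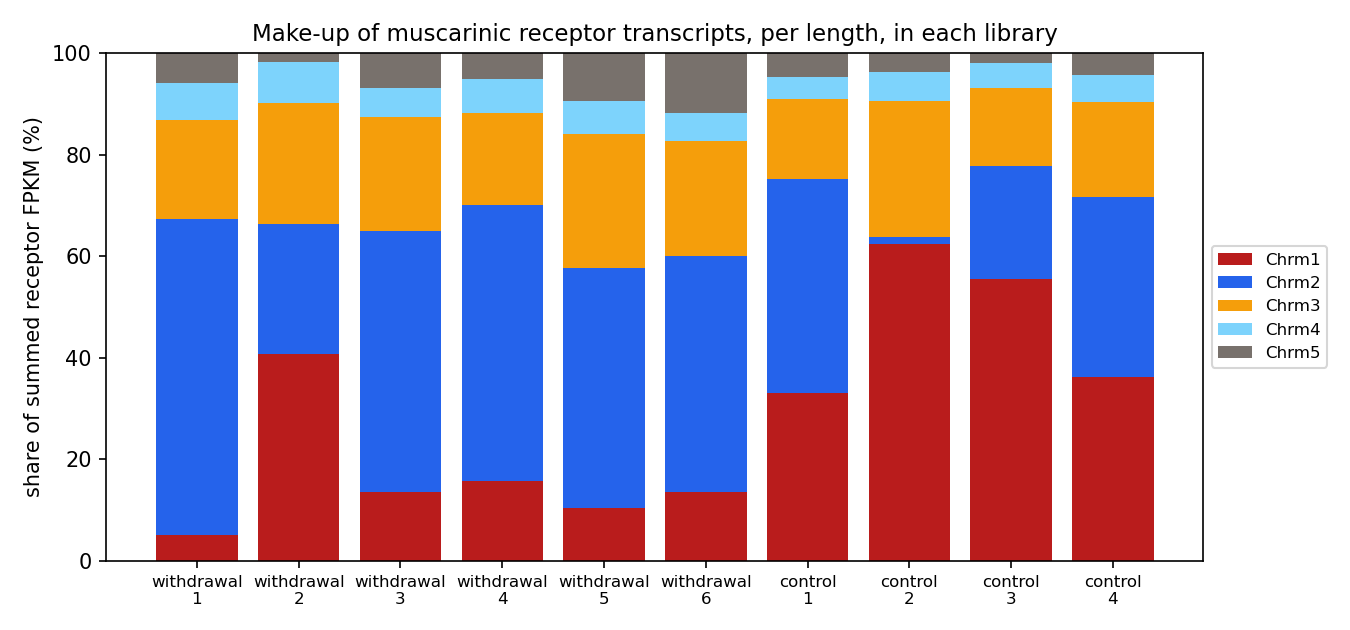
Share of the summed FPKM of the 5 muscarinic receptor genes held by each gene (vertical axis, percent) in each of the 6 withdrawal and 4 control libraries. Chrm1 takes between 5.02% and 15.7% in withdrawal 1, 3, 4, 5 and 6, against 33.1% to 62.4% in the 4 controls, and 40.8% in withdrawal 2.

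Chrm1, the Gq-coupled M1 receptor, was the member with the largest difference between the groups. It had 5.60, 16.5, 15.7, 10.7 and 13.8 CPM in withdrawal 1, 3, 4, 5 and 6 and 70.8 CPM in withdrawal 2. It had 50.1, 370.1, 116.7 and 42.0 CPM in controls 1 to 4. Every withdrawal library but withdrawal 2 lay below all 4 controls, and withdrawal 2 lay above controls 1 and 4, so the whole groups overlapped. The counts behind these levels ran from 94 to 6733.

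Over all 10 libraries the Chrm1 log2 change was -2.70 (SE 0.79, 95% interval -4.47 to -0.93), a ratio of 0.154, and it did not pass in edgeR's quasi-likelihood test (adjusted p = 0.252 over all genes tested). In that fit 0 of the 5 receptors passed, and 0.208% of all genes tested did. At an unadjusted p under 0.05 there was 1 receptor, Chrm1, beside 15.4% of all genes. DESeq2 on the same 10 libraries called Chrm1 lower (adjusted p = 0.0204, 2.55% of genes called), and limma on log2(FPKM + 1) called 0 of the 5 (0.0804% of genes called). Without withdrawal 2 alone, edgeR called Chrm1 (log2 change -3.53, adjusted p = 0.0250, 5.98% of genes called), and without control 2 alone it did not (-1.66, adjusted p = 0.419, 0.228% of genes called).

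In the 8 libraries Chrm1 fell to 12.5 ± 4.46 CPM in withdrawal, against 69.6 ± 41.0 CPM in controls (SD, n = 5 and 3). The log2 change was -2.48 (SE 0.38, 95% interval -3.33 to -1.64, edgeR adjusted p = 0.00515), a ratio of 0.179. Chrm1 was the 1 receptor of 5 called in this fit, which called 14.0% of all genes with 7.63% lower and 6.36% higher. Its groups did not overlap, which held for 11.5% of all genes with withdrawal lower. By size its log2 change was the 45th lowest of 14928 there and the 25th lowest with all 10 libraries. DESeq2 (adjusted p = 5.18e-06, 19.4% of genes called) and limma (adjusted p = 0.0109, 13.1% of genes called) also called it in the 8 libraries. In bulk tissue, fewer cells of a type and less RNA per cell cannot be told apart.

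**Figure D2:**
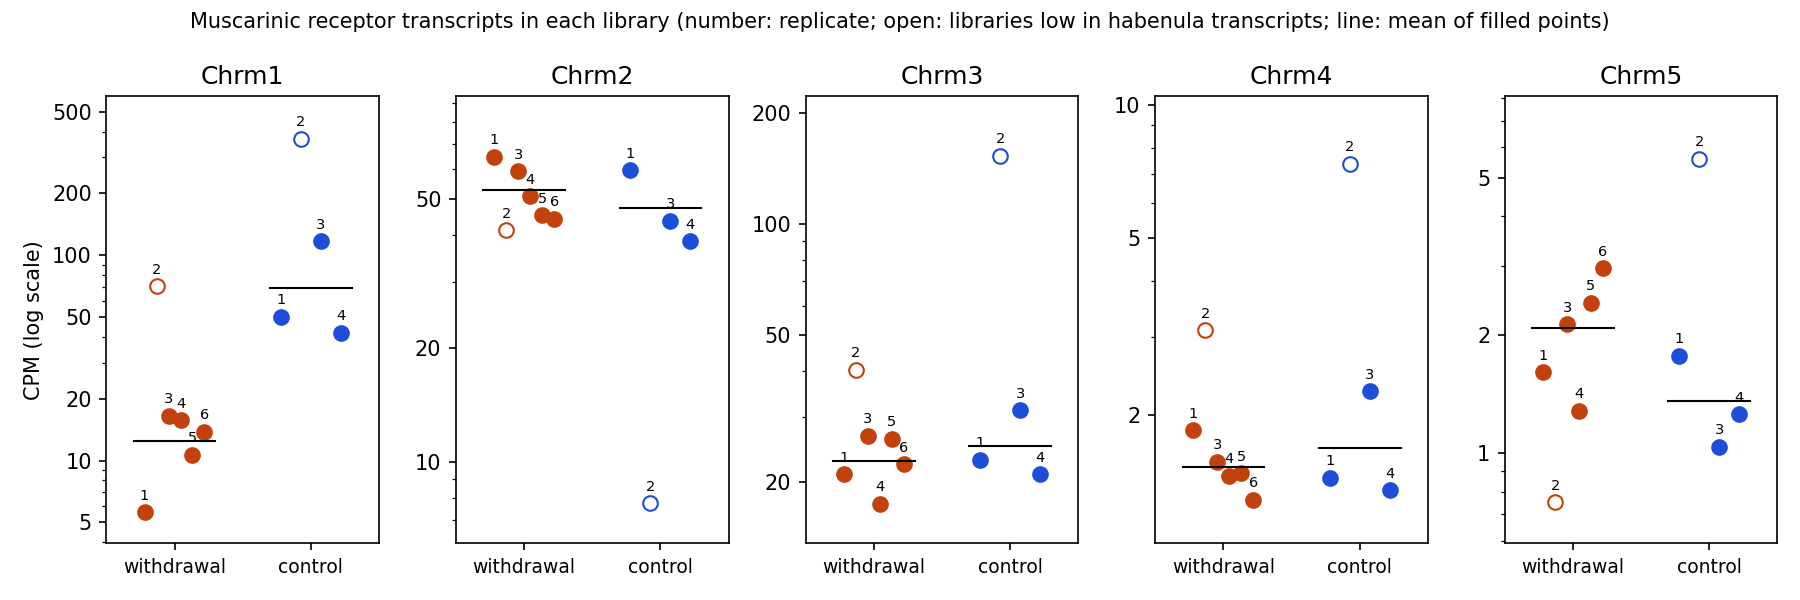
CPM of each muscarinic receptor gene (vertical axes, log scale) in the 6 withdrawal libraries (orange) and the 4 controls (blue), numbered by replicate. Open points are withdrawal 2 and control 2, and each line is the mean of the filled points. Chrm1 sits between 5.60 and 16.5 CPM in the filled withdrawal points and between 42.0 and 116.7 CPM in the filled controls, while the filled points of the other 4 genes overlap between groups.

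Markers of hippocampal and cortical neurons moved with Chrm1 across the libraries, though not in proportion to it. The summed level of 9 such markers was 379.9, 891.2, 431.7, 494.9, 462.5 and 426.8 CPM in withdrawal 1 to 6, and 712.3, 4183, 1427 and 722.0 CPM in controls 1 to 4. No marker of the list was at 0 in any library. Neurod6, a transcription factor of pyramidal neurons, ran from 1.07 to 35.8 CPM in withdrawal and from 3.22 to 345 CPM in controls. Control 2, control 3 and withdrawal 2 had the 3 highest values of both the marker sum and Chrm1, and withdrawal 1 had the lowest of both. Per 1000 CPM of the marker sum, Chrm1 had 14.7 to 38.3 CPM in withdrawal 1, 3, 4, 5 and 6. It had 58.2 to 81.8 CPM in controls 1, 3 and 4, 79.5 CPM in withdrawal 2 and 88.5 CPM in control 2. Of the 8 markers tested, 7 had a lower mean in withdrawal in the 8-library fit and 5 fell (7.63% of all genes did), with a median log2 change of -1.76 over the 8. Over all 10 libraries edgeR called 0 of the 8 (0.208% of all genes), with 7 at an unadjusted p under 0.05 (15.4%). DESeq2 called 4 (2.55% of all genes) and limma 0 (0.0804%). The markers differed in size of change. Neurod2 in the 8 libraries ran from 6.14 to 14.7 CPM in withdrawal and from 42.5 to 130.1 CPM in controls, a ratio of 0.133 beside 0.179 for Chrm1. Slc17a7, a vesicular glutamate transporter, had a ratio of 0.619, and Wfs1 had 1.03. At 204.9 to 300.7 CPM, Slc17a7 was the largest part of the sum in withdrawal 1, 3, 4, 5 and 6. Medial habenula neurons also release glutamate, so Slc17a7 need not come from hippocampus or cortex. The part that hippocampal or cortical tissue has in the Chrm1 difference was not tested.

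**Figure D3:**
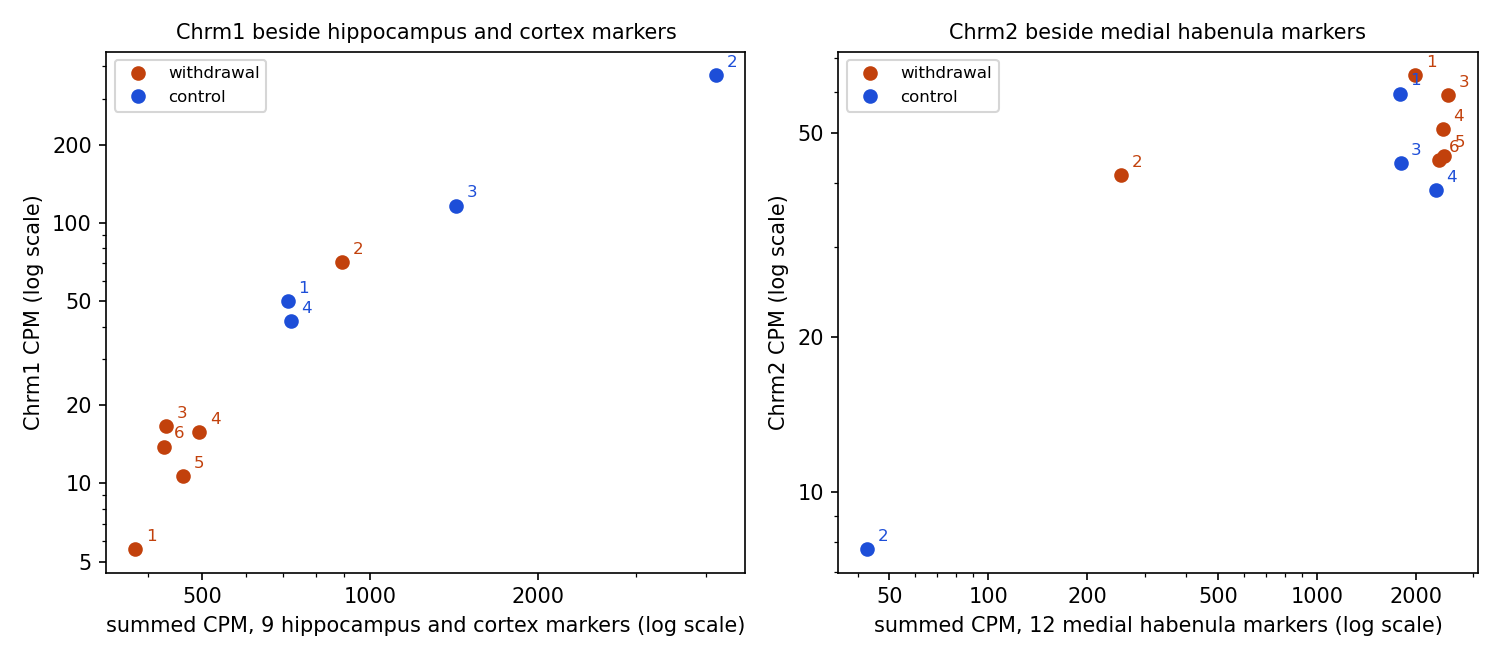
Left, Chrm1 CPM against the summed CPM of 9 hippocampus and cortex markers, and right, Chrm2 CPM against the summed CPM of 12 medial habenula markers, both on log axes. Each point is a library (withdrawal orange, control blue, numbered by replicate). Chrm1 ranges from 5.60 CPM at a marker sum of 379.9 CPM in withdrawal 1 to 370.1 CPM at 4183 CPM in control 2. Chrm2 is lowest, at 7.75 CPM, in control 2, where the habenula sum is 42.9 CPM. In withdrawal 2 Chrm2 is 41.3 CPM at a habenula sum of 253.9 CPM, of which Calb2 is 221.3 CPM.

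Chrm3, the Gq-coupled M3 receptor, did not pass in edgeR or limma, and its mean difference over 10 libraries rested on control 2. The withdrawal libraries ran from 17.4 CPM through a median of 24.2 CPM to 40.2 CPM, and controls 1 to 4 had 23.0, 153.2, 31.3 and 20.9 CPM. The groups overlapped, with withdrawal 2 the highest of its group. The log2 change was -1.16 over 10 libraries (SE 0.54, edgeR adjusted p = 0.336; DESeq2 gave no p there) and 0.023 without control 2 (edgeR adjusted p = 0.977). Chrm3 in the 8 libraries averaged 22.7 ± 3.82 CPM in withdrawal and 25.1 ± 5.49 CPM in controls (SD, n = 5 and 3). Its log2 change was -0.15 there (95% interval -0.52 to 0.22, edgeR adjusted p = 0.581).

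Chrm5, the Gq-coupled M5 receptor known from midbrain dopamine neurons, was scarce. It had 15 to 102 counts per library, which limits the precision of its values. The withdrawal libraries ran from 0.75 CPM through a median of 1.87 CPM to 2.95 CPM, and controls 1 to 4 had 1.77, 5.61, 1.04 and 1.26 CPM. Control 2 was the highest of all libraries and withdrawal 2 the lowest, unlike the other Gq-coupled members, for which both were the highest of their groups. The log2 change was -0.38 over 10 libraries (SE 0.52, edgeR adjusted p = 0.730). Over the 8 libraries Chrm5 averaged 2.08 ± 0.66 CPM in withdrawal and 1.36 ± 0.38 CPM in controls (SD, n = 5 and 3). There the log2 change was 0.62 (95% interval -0.068 to 1.31, edgeR adjusted p = 0.204) and opposite in sign to the 10-library value.

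Chrm2, the Gi/o-coupled M2 receptor, was lowest in control 2, 1 of the 2 libraries low in habenula markers. The withdrawal libraries ran from 41.3 CPM through a median of 48.0 CPM to 64.8 CPM, and controls 1 to 4 had 59.6, 7.75, 43.7 and 38.6 CPM. Withdrawal 2, at 41.3 CPM, was the lowest of its group but stood above control 4. Its habenula marker sum was 253.9 CPM, of which Calb2 held 221.3 CPM, against a sum of 2300 CPM in control 4. Chat was at 0.2004 CPM in withdrawal 2 and 0.165 CPM in control 2. The log2 change was 0.45 over 10 libraries (SE 0.42, edgeR adjusted p = 0.608). Over the 8 libraries Chrm2 averaged 52.9 ± 8.94 CPM in withdrawal and 47.3 ± 10.9 CPM in controls (SD, n = 5 and 3). Its log2 change was 0.16 there (95% interval -0.21 to 0.52, edgeR adjusted p = 0.558).

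Chrm4, the Gi/o-coupled M4 receptor, had 22 to 134 counts per library. The withdrawal libraries ran from 1.29 CPM through a median of 1.52 CPM to 3.11 CPM, and controls 1 to 4 had 1.44, 7.36, 2.26 and 1.35 CPM. Control 2 and withdrawal 2 were the highest of their groups, and the groups overlapped. The log2 change was -0.79 over 10 libraries (SE 0.49, edgeR adjusted p = 0.435) and 0.084 without control 2 (edgeR adjusted p = 0.930). Without control 2 and withdrawal 2, Chrm4 averaged 1.53 ± 0.21 CPM in withdrawal and 1.69 ± 0.50 CPM in controls (SD, n = 5 and 3), a log2 change of -0.14 (95% interval -0.67 to 0.38, edgeR adjusted p = 0.716). Summed striatal projection neuron markers, the cells M4 is best known from, overlapped between the groups, at 219.5 to 377.6 CPM in withdrawal and 263.6 to 312.0 CPM in controls. That sum holds Tac1, also a habenula marker, which was at 1.75 CPM in withdrawal 2 and 6.38 CPM in control 2.

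**Figure D4:**
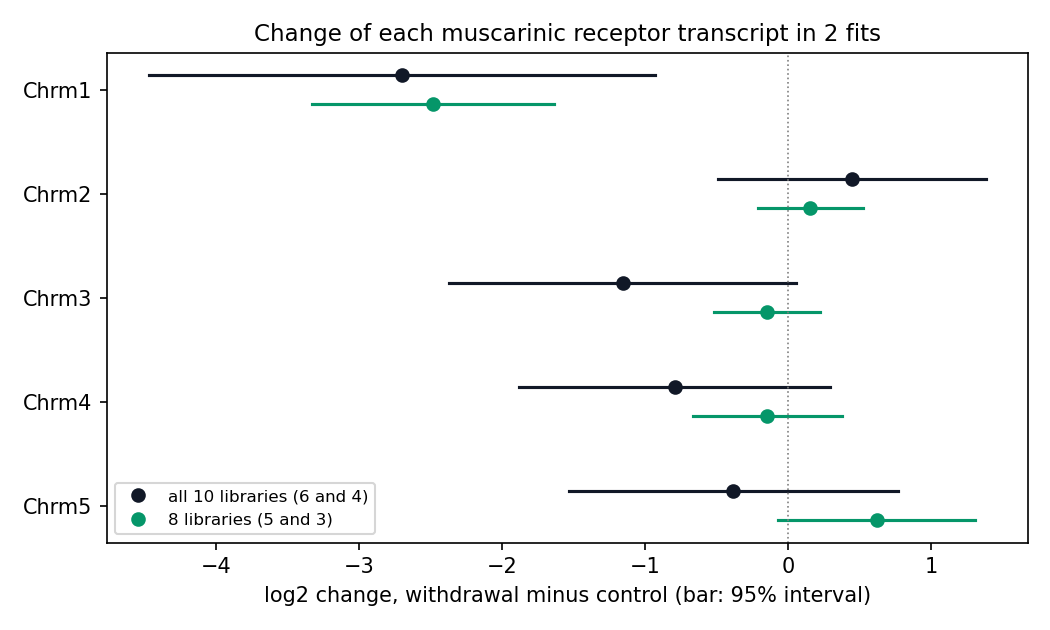
Log2 change of each muscarinic receptor gene, withdrawal minus control, with its 95% interval, in the fit of all 10 libraries (black) and of the 8 without withdrawal 2 and control 2 (green). Only the intervals of Chrm1, -4.47 to -0.93 and -3.33 to -1.64, stay on one side of 0.

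The gene models behind the counts differ between the members. The lengths that the deposited FPKM imply, 6487, 6054 and 6249 bases for Chrm1, Chrm2 and Chrm3, lie within 4 bases of the exon lengths in GENCODE M21. Chrm4 and Chrm5 were counted over 1440 and about 1603 bases, where GENCODE M21 has a single exon of 1440 and 1599 bases whose length is a multiple of 3, that is, a coding length. Reads from their untranslated regions would not be counted in such a model. On the opposite strand, Gm22820 overlaps 5.1% of the Chrm1 exon length and is not among the genes in the table. Also on the opposite strand, 9330158H04Rik overlaps 2.3% of the Chrm2 exon length and had 7 to 39 counts. The strand setting of the counting is not given in the sources used here, so reads of such overlaps cannot be told apart.

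The profiles most like each receptor were sought among all tested named genes by the root mean square gap of log2 CPM over the 10 libraries, each gene centred on its own mean. For Chrm1, whose own spread was 1.73 on that scale, they were the transcription factor Bcl11b (gap 0.31), the inwardly rectifying potassium channel Kcnj4 (0.35) and the transcription factor Neurod2 (0.35), itself among the 9 hippocampus and cortex markers. Bcl11b ran from 12.4 to 99.5 CPM in withdrawal and from 49.8 to 419.0 CPM in controls. For Chrm2 they were Tex9, Plch1 and Pcsk1 (gaps 0.22, 0.23 and 0.24 against an own spread of 0.83), and Pcsk1, a prohormone-cleaving enzyme, ran from 73.2 to 115.4 CPM in withdrawal and from 14.1 to 105.4 CPM in controls. For Chrm3 they were Ppp3r1, Creg2 and Arl15 (gaps 0.19, 0.20 and 0.20, own spread 0.85), for Chrm4 Nrxn3, Rap2b and Arpc5 (0.13, 0.14 and 0.16, own spread 0.71), and for Chrm5 Tmem200a, Zdhhc2 and Sema6c (0.34, 0.37 and 0.37, own spread 0.74).

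Around the Gq-coupled receptors, all 18 listed signalling genes were in the table and 16 passed the filter and were tested. Of these 0 passed over 10 libraries (0.208% of all genes did), with 4 at an unadjusted p under 0.05 (15.4% of all genes). DESeq2 and limma called 0 of the 16 (2.55% and 0.0804% of all genes). The 2 with the smallest p were Dgkz, a diacylglycerol kinase (log2 change -1.02, edgeR adjusted p = 0.264), and Itpr2, a calcium release channel (-0.33, edgeR adjusted p = 0.272). In the 8 libraries 4 of 16 fell and 0 rose, beside 7.63% and 6.36% of all genes. Prkca, a protein kinase C, fell to 76.0 ± 10.2 CPM in withdrawal, against 191.3 ± 82.9 CPM in controls (SD), and Plcb1, a phospholipase C that Gq activates, fell to 56.3 ± 3.28 CPM, against 94.1 ± 32.4 CPM. Their log2 changes were -1.34 and -0.75 (edgeR adjusted p = 0.00732 and 0.0210). Trpc6, a cation channel opened by diacylglycerol, and Dgkz fell by 1.97 and 0.38 on the log2 scale (edgeR adjusted p = 0.0220 and 0.0311). The list's median log2 change was -0.29, beside 0.0077 over all genes. Leaving out withdrawal 5 as well left 1 gene of the list called, beside 7.36% of all genes.

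Around the Gi/o-coupled receptors, 0 of 16 genes passed over 10 libraries (0.208% of all genes did), and 4 had an unadjusted p under 0.05 (15.4%). DESeq2 called 2 (2.55% of all genes) and limma 0 (0.0804%). The smallest p were those of the G protein subunit Gnai2 (log2 change 0.27, edgeR adjusted p = 0.229) and the adenylyl cyclase Adcy9 (-1.53, edgeR adjusted p = 0.258). In the 8 libraries 3 of 16 rose and 2 fell, beside 6.36% and 7.63% of all genes. The calcium-stimulated adenylyl cyclase Adcy1 fell to 110.2 ± 27.8 CPM in withdrawal, against 672.7 ± 315.4 CPM in controls (SD), a log2 change of -2.62 (edgeR adjusted p = 0.00120), and Adcy9 fell by 1.01 on the log2 scale (edgeR adjusted p = 0.00714). Adcy8, another calcium-stimulated cyclase, rose to 66.8 ± 7.50 CPM in withdrawal, against 48.0 ± 5.30 CPM in controls (SD, log2 change 0.47, edgeR adjusted p = 0.0194). The G protein subunits Gng3 and Gnai2 rose by 0.57 and 0.20 (edgeR adjusted p = 0.0147 and 0.0393). The list's median log2 change was 0.15. Leaving out control 3 as well left 2 genes of the list called, beside 5.84% of all genes.

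Of 12 channels that muscarinic receptors regulate, 0 passed over 10 libraries (0.208% of all genes did), and 3 had an unadjusted p under 0.05 (15.4%). DESeq2 and limma called 0 (2.55% and 0.0804% of all genes). The smallest p was that of the inward rectifier Kcnj6 (log2 change -1.59, edgeR adjusted p = 0.264). In the 8 libraries 2 of 12 rose and 2 fell, beside 6.36% and 7.63% of all genes. The G protein-gated inward rectifiers that edgeR called went both ways. Kcnj6 fell to 7.92 ± 1.35 CPM in withdrawal, against 21.7 ± 9.57 CPM in controls, and Kcnj3 fell to 50.3 ± 7.29 CPM, against 87.9 ± 29.2 CPM. By contrast, Kcnj9 rose to 101.4 ± 18.9 CPM in withdrawal, against 69.9 ± 4.33 CPM in controls (SD). Their log2 changes were -1.46, -0.81 and 0.53 (edgeR adjusted p = 0.00770, 0.0235 and 0.0378), and the leak channel Kcnk3 rose by 0.60 (edgeR adjusted p = 0.0382). Groups overlapped for Kcnj9 and Kcnk3, and with 1 more library left out Kcnj9 was called only without withdrawal 6. Kcnj5, another such rectifier, was not called by edgeR in the 8 libraries, while DESeq2 called it higher (log2 change 0.97, DESeq2 adjusted p = 0.0175). The list's median log2 change was 0.20. Leaving out withdrawal 1, 3 or 4 or control 4 as well left 2 channels called (8.47%, 8.53%, 10.4% and 9.75% of all genes). Leaving out withdrawal 5 or control 3 left 1 (7.36% and 5.84% of all genes).

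Of 16 genes of receptor regulation, 0 passed over 10 libraries (0.208% of all genes did), and 3 had an unadjusted p under 0.05 (15.4%). DESeq2 called 1 (2.55% of all genes) and limma 0 (0.0804%). The smallest p were those of Rgs14, which speeds the turn-off of Gi and Go (log2 change -3.52, edgeR adjusted p = 0.252), and the receptor kinase Grk3 (0.43, edgeR adjusted p = 0.264). In the 8 libraries 4 of 16 rose and 1 fell, beside 6.36% and 7.63% of all genes. Grk3 rose to 149.8 ± 17.6 CPM in withdrawal, against 101.9 ± 6.86 CPM in controls (SD, log2 change 0.55, edgeR adjusted p = 0.00882), and Rgs17 rose to 143.5 ± 12.5 CPM, against 87.1 ± 18.0 CPM (0.71, edgeR adjusted p = 0.00801). Rgs9 and the receptor-sorting protein Gprasp1 rose by 0.40 and 0.39 (edgeR adjusted p = 0.0212 and 0.0145), and Rgs14 fell by 2.62 on the log2 scale (edgeR adjusted p = 0.00588). The list's median log2 change was 0.15. Without control 3 as well, 3 of its genes were called (5.84% of all genes), and without withdrawal 6 as well, 8 were (19.5%). All 9 genes of acetylcholine supply were in the table and 8 were tested. Over 10 libraries 0 passed (0.208% of all genes did), with 0 at an unadjusted p under 0.05 (15.4%). DESeq2 and limma called 0 of the 8 (2.55% and 0.0804% of all genes). Over the 8 libraries 2 of 8 were called, beside 14.0% of all genes, with the esterase Ache higher (log2 change 0.51) and the choline transporter-like gene Slc44a1 lower (-0.45). Genes called in the 8 libraries other than the 2 per list with the smallest p were chosen after their values were seen.

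Among the called genes, Adcy1, Rgs14, Trpc6, Kcnj6 and Prkca fell most in the 8 libraries. Of the hippocampus and cortex markers, Slc17a7 need not come from those regions and was 204.9 to 300.7 CPM in the 5 withdrawal libraries. With it, the markers summed to 379.9 to 494.9 CPM in those libraries and 712.3 to 1427 CPM in the 3 controls. That difference lies between the libraries and so stands beside every gene of this fit, also those that rose. Its part in the changes of the called genes was not tested. Over the 5 lists, 0 of 68 tested genes passed with all 10 libraries, in a fit that called 0.208% of all genes.

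**Figure D5:**
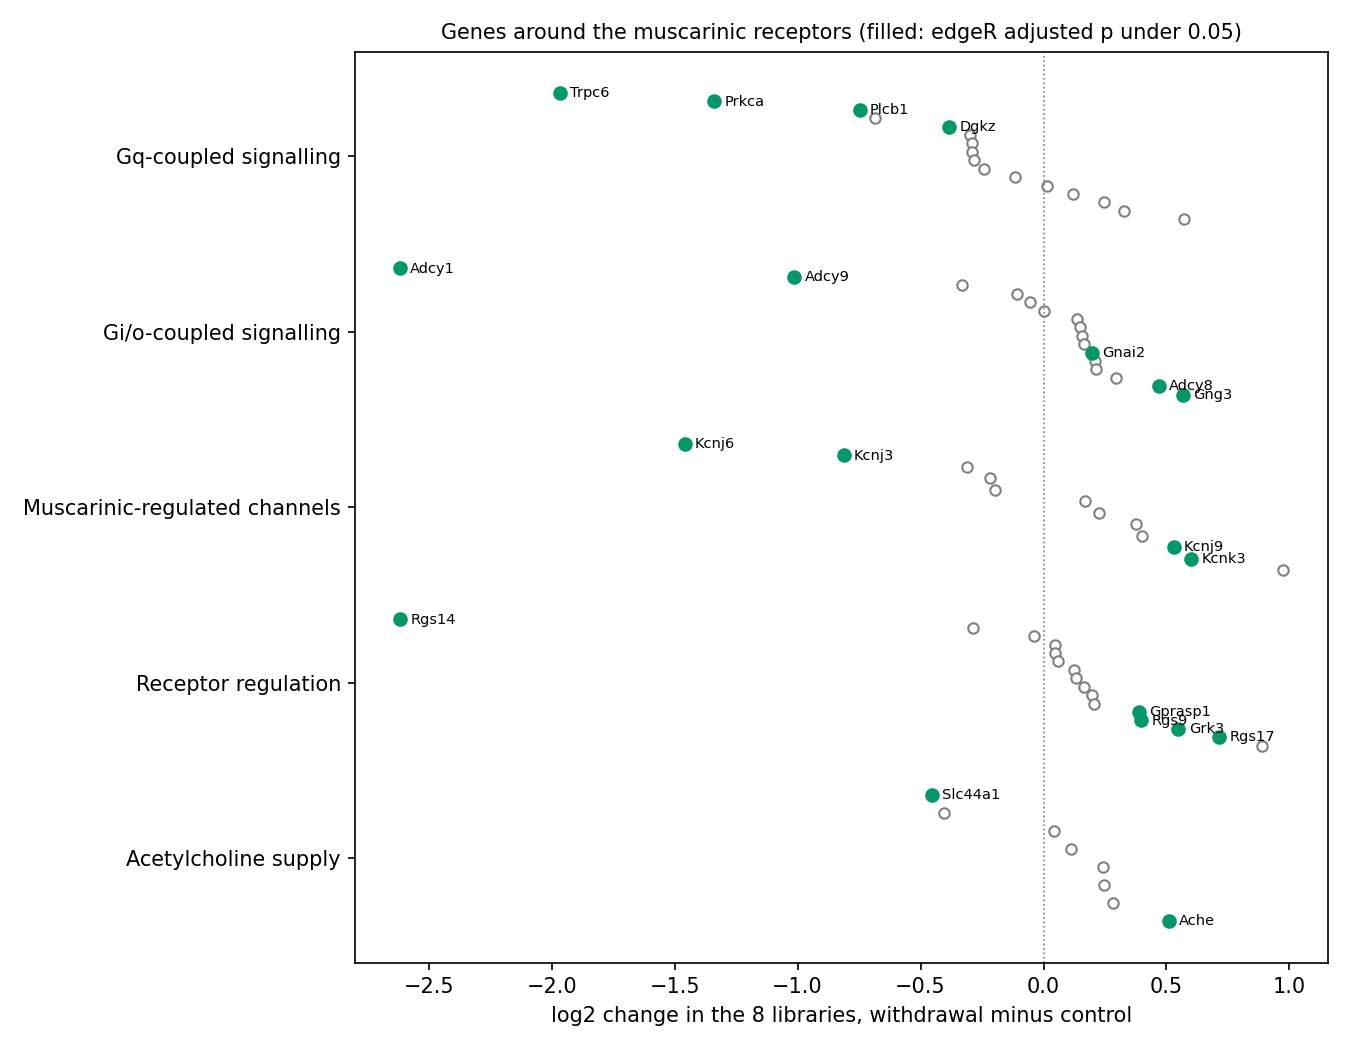
Log2 change, withdrawal minus control, of the tested genes of 5 lists around the muscarinic receptors in the 8 libraries (horizontal axis), each point a gene, ordered by its change within its list. Filled and named points passed edgeR at an adjusted p under 0.05, from Adcy1 at -2.62 to Rgs17 at 0.71.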

How the data were processed

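Whole-number counts per gene and FPKM (fragments per kilobase, scaled to depth) for 10 libraries are the authors' deposited values. Per the submitters' processing notes, cutadapt 1.9.1, HISAT2 2.2.1 and HTSeq 0.6.1 were used with mm39. The annotation release, strand setting and gene lengths are not given in the sources used here. Per the labels' protocols, 1 μg of total RNA went into each library. Symbols came from GENCODE M21 by gene ID, for 52073 of 56691 genes, and no coordinates are given because that release is on another build.

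Groups came from the labels, with 1 library per mouse, and sex, litter and batch are not among them. Genes with a mean of at least 1 FPKM were tested (14928 genes, holding at least 99.05% of each library's counts) with edgeR 4.0.16 in R 4.3.3 (TMM, quasi-likelihood, 2-sided, Benjamini-Hochberg over all tested genes, threshold 0.05). CPM are counts scaled to the TMM-adjusted library size, and intervals are 95% intervals of the fit. Alternatives were DESeq2 1.42.0, limma 3.58.1 with trend on log2(FPKM + 1) and log2(FPKM + 0.1), other filters and size factors, a replicate block, and left-out libraries. For the 8 libraries, the fits by DESeq2 and limma and those leaving out 1 more library were added after the data had been seen. The procedure was tested on simulated data.

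The text names the 5 receptors, their 3 nearest profiles each, and the 2 genes of each list with the smallest p over 10 libraries. For the channel list, 1 of these 2 is not reported here. Members and lists were chosen with earlier results of these data known.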

Additional observations from a re-analysis of the deposited data

Results flagged for a closer look

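In each of 10 groups of values (5 receptors in withdrawal and control) the highest and lowest library were set against the rest, and a gap large for the group's range was found 5 times. The cutoff is set for about 5% of groups of independent, normally distributed values. These groups share the same libraries and hold CPM without a log scale, so that rate need not hold here. All 5 gaps found were in withdrawal 2 or control 2, the libraries low in habenula transcripts. In withdrawal 2, Chrm1 had 70.8 CPM and the rest of its group 5.60 to 16.5 CPM, and Chrm4 had 3.11 CPM and the rest 1.29 to 1.85 CPM. In control 2, Chrm3 had 153.2 CPM and the remaining controls 20.9 to 31.3 CPM. Chrm4 had 7.36 CPM there and 1.35 to 2.26 CPM in the remaining controls, and Chrm5 had 5.61 CPM there and 1.04 to 1.77 CPM in them.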

How the results depend on the processing

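The Chrm1 log2 change was negative in all settings run and passed the threshold under DESeq2 (-2.70), without control 2 and withdrawal 2 (-2.48), and there with DESeq2 (-2.49) and limma (-1.91). Leaving out 1 library at a time gave -3.53 to -1.66 over 10 libraries, called only without withdrawal 2, and -2.75 to -1.88 over 8, called each time. Chrm2 stayed positive, at 0.0998 to 0.763 and 0.027 to 0.353 with 1 library left out. Chrm5 turned to 0.62 in the 8 libraries (DESeq2 0.62, limma 0.32), with 1 library left out ranging from -0.63 to 0.45 over 10 and from 0.46 to 0.84 over 8. Chrm3 ranged from -1.43 to 0.023 over 10 and from -0.27 to 0.046 over 8, and Chrm4 from -1.05 to 0.084 and from -0.29 to 0.12. The positive ends are those without control 2 (of 10) and without control 3 (of 8), and the cause was not tested. Of all genes, 31 were called over 10 libraries, 381 by DESeq2, 12 and 10 by limma with pseudocounts 1 and 0.1, and 0 with the replicate block. Leaving out 1 library gave 4 to 893, the most without withdrawal 2. The 8 libraries gave 2088 (DESeq2 2899, limma 1952), and 872 to 2911 with 1 more left out. From 0 over 10 libraries, the calls for Gq signalling were 4 in the 8 libraries (DESeq2 6, limma 3), with ranges of 0 to 2 and 1 to 6 when leaving out 1 library from 10 and from 8. Gi/o signalling had 2 under DESeq2 and 5 in the 8 libraries (DESeq2 7, limma 6), with ranges of 0 to 3 and 2 to 6. Channels had 4 (DESeq2 5, limma 4), with ranges of 0 to 1 and 1 to 4. Receptor regulation had 1 under DESeq2 and 5 in the 8 libraries (DESeq2 6, limma 5), with ranges of 0 to 3 and 3 to 8. Acetylcholine supply had 2 in each of the 3 fits of the 8 libraries, with ranges of 0 to 1 and 1 to 3.

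Nothing in the labels ties equal replicate numbers to a shared litter or day, so the numbers were not taken to pair the mice. Same-numbered withdrawal and control libraries 1 to 4 had deviations correlating at 0.029, 0.31, -0.13 and 0.28 over genes. So few values, of mixed sign, cannot decide whether the mice were paired. With the replicate block the log2 changes were -2.44 for Chrm1, 0.80 for Chrm2, -0.63 for Chrm3, -0.36 for Chrm4 and -0.46 for Chrm5, with no receptor called. Depth limits Chrm4 and Chrm5, with as few as 22 and 15 counts in a library.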

Other observations

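Markers of further cell types also differed in the 8 libraries, where the values were edgeR's unless another tool is named and 14.0% of all genes were called. Of 6 oligodendrocyte markers 5 fell, with a median log2 change of -0.64, and of 6 astrocyte markers 3 fell, with a median of -0.20. Among 12 medial habenula markers 1 passed, Calb2, the calcium-binding protein calretinin, which rose to 547.8 ± 90.9 CPM in withdrawal, against 343.6 ± 69.1 CPM in controls (SD, n = 5 and 3, log2 change 0.67). Calb2 was also at 221.3 CPM in withdrawal 2, where Chat was at 0.2004 CPM. Of 8 GABAergic markers 1 fell (Npy), with a median log2 change of -0.75 and all 8 lower in mean. Of 7 thalamic markers 1 rose (Lef1), with a median of 0.68 and all 7 higher in mean. Of 8 striatal markers 1 rose (Rgs9, also in the receptor regulation list), with a median of 0.18. Of 5 microglia markers 0 passed, with 2 at an unadjusted p under 0.05 (30.9% of all genes in this fit). DESeq2 and limma each called 1 (19.4% and 13.1% of all genes). The median log2 change of the 5 was -0.22. Of 5 choroid plexus markers 0 passed, with 0 at an unadjusted p under 0.05 and 0 by DESeq2 or limma. All 5 were lower in mean, with a median log2 change of -1.15. Their sum ran from 109.3 to 9704 CPM in the 5 withdrawal libraries and from 7342 to 10231 CPM in the 3 controls. Over all 10 libraries edgeR, DESeq2 and limma called 0 markers of these 8 lists, beside 0.208%, 2.55% and 0.0804% of all genes. In edgeR 5 were at an unadjusted p under 0.05, beside 15.4% of all genes. The part of these cell types in the receptor levels was not tested.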
